A study of Homo sapiens with 12 samples.

Results

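The MYC, MAX and MXD network was followed through a course of drug treatment and drug withdrawal in A375 cells, a human melanoma line. Its members were taken by gene symbol from the table of read counts: MYC, MAX, MXD1, MXD3, MXD4, MXI1, MNT, MLX and MLXIP, which are 9 of the 44659 genes listed. All 9 had enough reads to be tested. They were chosen as a family by symbol and not by a threshold on values, but with earlier results of these data known.

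RNA was sequenced from 4 groups of A375 cultures with 3 libraries each. Control cells (CC) were given the solvent DMSO for 72 h. MAPKi-treated cells (TC) were given 500 nM vemurafenib, an inhibitor of mutant BRAF, and 500 nM cobimetinib, an inhibitor of MEK, for 72 h. Persister cells (PC) had the same treatment followed by 2 days without drug, and recovered cells (RC) had it followed by 9 days without drug. All groups were a single cell line, and per the labels the RNA was cytoplasmic and depleted of ribosomal RNA. The methods of the study speak of total RNA for the sequencing libraries. Elsewhere, for transfected cells, they describe RNA taken from detergent lysates after centrifugation. Whether nuclear transcripts enter the levels is therefore not settled. PC and RC were each harvested on a day of their own and compared with controls of day 0, so time in culture and drug history cannot be told apart in them. Nothing in the labels says whether the 3 libraries of a group came from separate experiments, so p-values measure only the spread between these libraries.

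The network is a family of transcription factors that compete for a shared partner. MYC pairs with MAX, binds E-boxes (CACGTG and related sequences) and raises transcription of genes for ribosome biogenesis, nucleotide synthesis and the cell cycle. MXD1, MXD3, MXD4, MXI1 (also called MXD2) and MNT pair with MAX at the same sites and recruit SIN3 and histone deacetylases to repress them, and in many tissues MXD proteins accumulate as cells stop dividing and differentiate. MLX is a second, MAX-like partner. It pairs with MLXIP (MondoA), a sensor of glucose phosphates whose best known targets are TXNIP and ARRDC4, which limit glucose uptake. In melanoma cells with mutant BRAF, ERK signalling sustains MYC both at the level of its transcript and through phosphorylation of its protein. Only transcripts were measured here.

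Because members of the network bind E-boxes, also near genes of the network itself, the windows around the start sites of the members were searched for CACGTG. RefSeq (GRCh38.p14) windows of 300 bases, from 250 bases before to 50 bases after the start, were at hand for 8 of the 9 members, the exception being MYC. Of these, 3 held the motif, against 12.4% of the 11587 tested genes with a window and 7.26% of all 35116 windows. The 30 bases around each match are shown 5′ to 3′ on the strand of the gene, with the E-box in capitals. The MXD4 site lies at chr4:2262330-2262359 on the minus strand, the MNT site at chr17:2401236-2401265 on the minus strand and the MLX site at chr17:42567038-42567067 on the plus strand. They are all the matches in members and were not picked by their change. In TC, MXD4 was the member that rose most, whereas MNT and MLX were among those that moved least.
MXD4: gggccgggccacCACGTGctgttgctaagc
MNT: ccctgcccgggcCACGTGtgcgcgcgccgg
MLX: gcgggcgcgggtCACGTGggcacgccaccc

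The E-box began 238 bases before the start of MXD4, 193 bases before that of MNT and 50 bases before that of MLX. CACGTG is its own reverse complement, so each match counts for both strands. The MLXIP targets were searched in addition for a tandem element, CACGNG followed by 5 bases of any kind and a second CACGNG, which was found in 0.057% of all windows. It was found in TXNIP at chr1:145996645-145996673 on the minus strand, from 88 to 72 bases before the start. ARRDC4 held a CACGTG at chr15:97960481-97960510 on the plus strand, from 210 to 205 bases before the start. In both lines the capitals mark the match.
TXNIP: gatgtgCACGAGGGCAGCACGAGcctccg
ARRDC4: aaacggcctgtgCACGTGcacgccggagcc

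These matches describe sequence alone, since no binding was measured. A window with no match says only that the letters are not within it.

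Library totals ran from 37773389 to 55567097 counts, and each level is in CPM, that is, a count brought to one common library size after TMM normalisation. In the shallowest library 3 counts are worth 0.0794 CPM, a floor that covers counting error only. The melanocyte markers SOX10, MITF, PMEL, MLANA, TYR, DCT, S100B and S100A1 were present in every group, with a summed level of 1828 to 2006 CPM in CC, 7225 to 10430 in TC, 3647 to 5256 in PC and 1635 to 1695 in RC. In TC and PC most of this sum was DCT, with a mean of 407 CPM in CC, 6453 in TC and 2601 in PC. Of the 8 markers, 5 were higher and 1 lower in TC (33.2% and 34.7% of all tested genes). In PC 6 were higher and 1 lower (33.2% and 35.9%). Mean S100B went from 264 CPM in CC to 140 in TC, and mean MITF from 362 in CC to 221 in PC. Of 10 markers of haematopoietic, endothelial, keratinocyte and epithelial cells, between 6 and 7 per group had at most 3 counts in every library. Their summed level was 127 to 174 CPM in CC, 720 to 1065 in TC, 635 to 777 in PC and 119 to 132 in RC, and most of it was CD68, a lysosomal protein that is not restricted to macrophages. KRT14, of keratinocytes, had 0, 2 and 0 counts in CC, 21, 15 and 14 in TC and 88, 89 and 114 in PC. PTPRC, of haematopoietic cells, had 22, 29 and 22 counts in CC, 2, 0 and 4 in TC and 5, 8 and 5 in PC. All 8 proliferation markers (MKI67, TOP2A, CCNB1, PCNA, MCM2, CDC20, RRM2 and BIRC5) were lower in TC than in CC. Their summed level went from 1611 to 1948 CPM in CC to 135 to 162 in TC, 494 to 584 in PC and 2791 to 2864 in RC, and it therefore moved with several of the results below. The part of either set of markers in those results was not tested.

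MYC (chromosome 8, 127735434 to 127742951, plus strand, GRCh38 in GENCODE v44, as for all genes below) is the activator of the network. It was at 55.7, 51.6 and 70.0 CPM in the 3 CC libraries. In TC it was at 4.33, 3.68 and 5.43 CPM, in PC at 6.54, 6.41 and 5.99 CPM, and in RC at 41.9, 41.8 and 41.8 CPM. Every TC and PC library was below every CC library, and the RC libraries lay just below the CC range. The mean in TC was 7.58% of that in CC and the mean in PC was 10.7%. The log2 fold change was −3.71 in TC (SE 0.15, adjusted p 8.81e-10) and −3.23 in PC (SE 0.14, adjusted p 2.07e-09). PC was above TC (log2 difference 0.49, SE 0.14, adjusted p 0.027), a call that was lost without TC replicate 1 or 2 or any PC library (0.37 to 0.52 for MYC) and in a fit of these groups alone (0.49). RC reached 70.8% of the CC mean, and was still lower (log2 fold change −0.50, SE 0.13, adjusted p 0.00975), and exceeded PC by 2.73 (SE 0.14, adjusted p 6.32e-09). In bulk RNA, fewer cells with a transcript and less of the transcript per cell cannot be told apart.

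**Figure D1:**
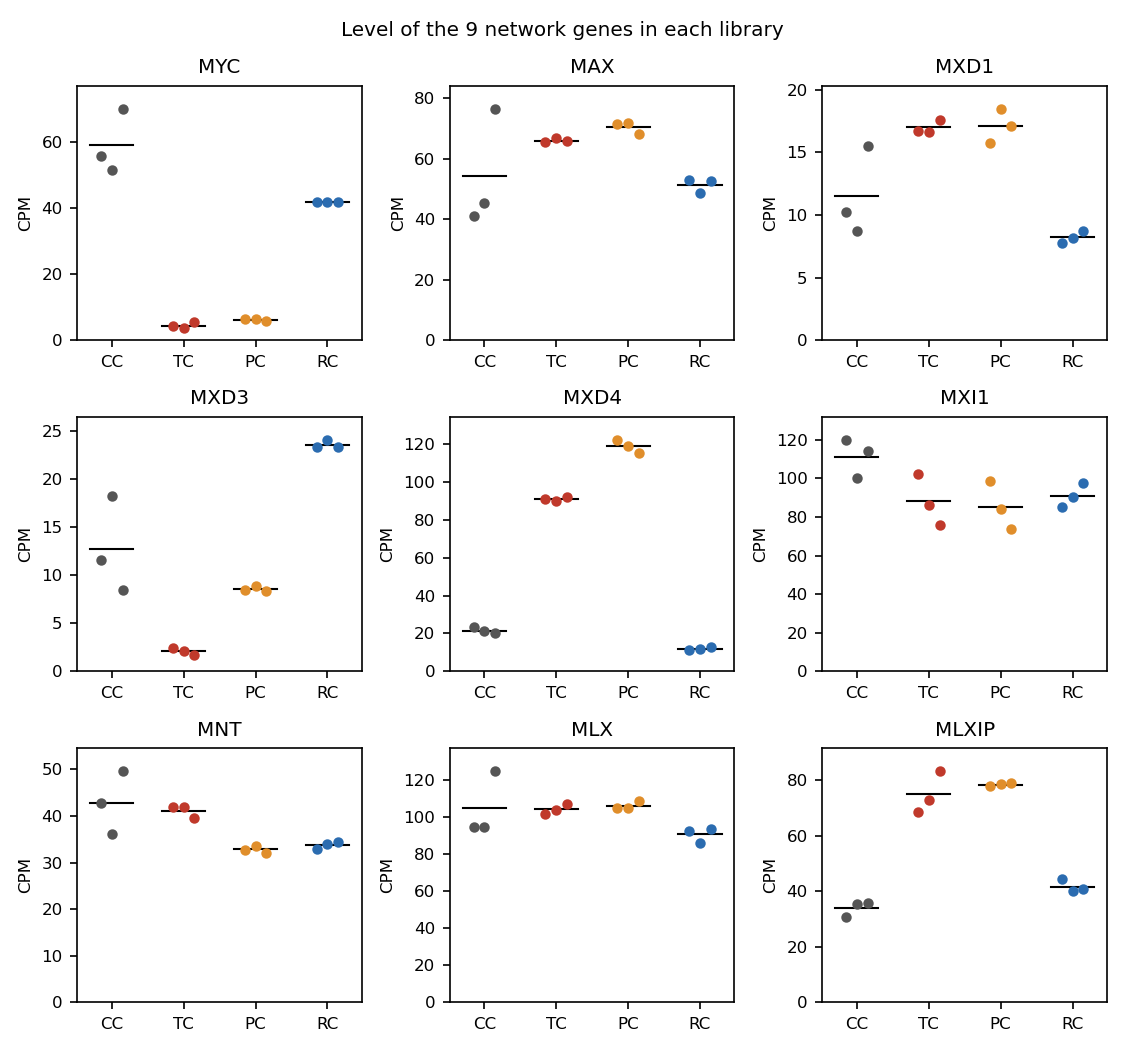
Level of each of the 9 network genes in CPM (vertical axes, from 0, a separate scale in each panel) in the libraries of CC, TC, PC and RC. Points are the 3 libraries of a group and bars are their mean. MYC is low in TC and PC and MXD4 is high in the same libraries, whereas MLX stays between 86.2 and 125 CPM in all 12 libraries.

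The share of members that changed was close to the share of all genes that changed. In TC 3 of the 9 were higher (MXD1, MXD4 and MLXIP) and 3 were lower (MYC, MXD3 and MXI1) at an adjusted p under 0.05, where 33.2% of the 15916 tested genes were higher and 34.7% were lower. Beyond 1.5-fold, MXD4 and MLXIP were higher and MYC and MXD3 lower, where 16.1% of all genes were higher and 19.3% lower. In PC the same 3 members were higher and MYC, MXD3, MXI1 and MNT were lower, with 33.2% and 35.9% of all genes called in these directions. MXD4 and MLXIP were higher and MYC was lower beyond 1.5-fold (17.2% and 19.9% of all genes). The median log2 fold change of the 9 members was −0.01 in TC and 0.02 in PC, beside −0.02 and −0.04 over all genes. What set the members apart from each other was direction and size, from −3.71 to 2.08 in TC.

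In RC 2 members were higher than in CC (MXD3 and MLXIP) and 4 were lower (MYC, MXD1, MXD4 and MNT), where 18.2% of all genes were higher and 19.1% lower. MXD4 was the 1 member that passed the 1.5-fold test, as lower, a call made for 2.52% of all genes, while 1.35% of all genes were higher beyond 1.5-fold. This call on MXD4 was not made without RC replicate 1 or RC replicate 2, with the 2 groups fitted alone or in DESeq2. From TC to PC, 3 members rose (MYC, MXD3 and MXD4) and MNT fell, with 12.2% of all genes higher and 12.5% lower. Only MXD3 rose beyond 1.5-fold, as did 2.33% of all genes, and 1.15% of genes fell to that extent. From PC to RC, MYC and MXD3 rose and 5 members fell (MAX, MXD1, MXD4, MLX and MLXIP), with 35.7% and 34.2% of all genes called. Beyond 1.5-fold MYC and MXD3 rose and MXD1, MXD4 and MLXIP fell, as did 20.2% and 18.5% of all genes.

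Libraries of TC did not overlap those of CC in 5 of the 9 members, where 68% of all tested genes showed no overlap. The number was 6 for PC against CC (70.1% of all genes), 8 for RC against CC (47.1%), 5 for PC against TC (47.1%) and 7 for RC against PC (78.5%). MAX was the member that did overlap between RC and CC. TC, PC and RC were set against the same 3 CC libraries, so the 3 comparisons with CC are not independent of each other.

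**Figure D2:**
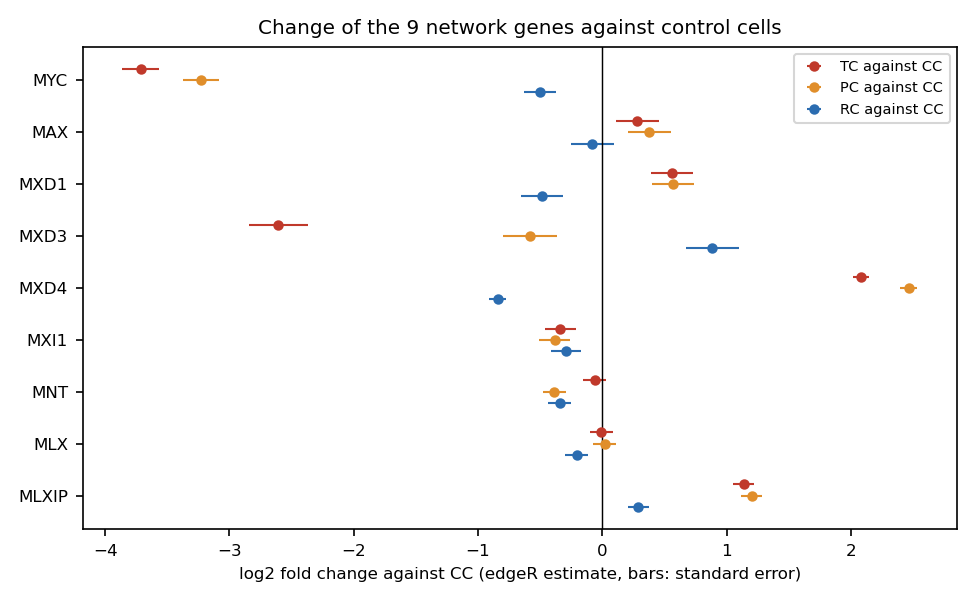
log2 fold change of each network gene against CC (horizontal axis) in TC, PC and RC, as estimated in edgeR, with bars for the standard error derived from the F statistic. MYC (−3.71 in TC) and MXD3 (−2.61 in TC) lie far to the left and MXD4 (2.08 in TC, 2.47 in PC) far to the right, and the points for MAX and MLX lie within 0.4 of zero.

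The repressors that pair with MAX did not move together. MXD4 (chromosome 4, 2247432 to 2262109, minus strand) was at 23.2, 21.2 and 20.1 CPM in CC, at 91.1, 89.9 and 92.0 in TC, at 122, 119 and 115 in PC, and at 11.5, 11.6 and 12.8 in RC. No 2 groups overlapped, and the order from low to high was RC, CC, TC and PC. Its log2 fold change against CC was 2.08 in TC (SE 0.07, adjusted p 1.95e-10), 2.47 in PC (SE 0.07, adjusted p 5.47e-11) and −0.84 in RC (SE 0.07, adjusted p 1.26e-05). Thus MXD4 was higher still 2 days after the drugs were removed than at the end of treatment (log2 difference 0.38, SE 0.06, adjusted p 0.00097). At 9 days it was below CC and 9.90-fold lower than in PC (log2 fold change −3.31, adjusted p 1.41e-11).

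MXD3, an MXD protein that unlike its relatives is found in proliferating cells, followed a different course. The gene (chromosome 5, 177301461 to 177312757, minus strand) was at 11.6, 18.3 and 8.49 CPM in CC, at 2.44, 2.15 and 1.73 in TC, at 8.42, 8.89 and 8.33 in PC, and at 23.4, 24.0 and 23.3 in RC. The TC libraries were the lowest and the RC libraries the highest, while CC was spread widely and overlapped PC. Its log2 fold change against CC was −2.61 in TC (SE 0.24, adjusted p 9.61e-07), −0.58 in PC (SE 0.22, adjusted p 0.0308) and 0.88 in RC (SE 0.21, adjusted p 0.00708). From TC to PC it rose by 2.03 (SE 0.23, adjusted p 8.57e-05), more than any other member. The PC call was lost without CC replicate 2, where the value of MXD3 was −0.23 (adjusted p 0.189). It was also lost without any 1 of the PC libraries (−0.61 to −0.56, adjusted p 0.0568 to 0.0745) and in a fit of the 2 groups alone.

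In the GENCODE annotation MXD3 shares 1148 exon bases with PRELID1 on the opposite strand and 926 with RAB24 on the same strand, and whether reads were counted by strand was not stated. PRELID1 changed in the same directions by less, with log2 fold changes of −0.57 in TC, −0.44 in PC and 0.42 in RC, all with an adjusted p under 0.05. RAB24 was at −0.16 in TC (adjusted p 0.192, but called without CC replicate 3, at −0.25) and was lower in PC (−0.40, adjusted p 0.00426). In RC, where MXD3 was higher, RAB24 was lower (−0.29, adjusted p 0.0443), a call made in 6 of 18 alternatives. How far reads of these neighbours enter the MXD3 count was not tested.

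MXD1, the founding MXD protein and a marker of terminal differentiation (chromosome 2, 69897688 to 69942945, plus strand), was at 10.2, 8.74 and 15.5 CPM in CC. It was at 16.7, 16.6 and 17.6 CPM in TC, at 15.7, 18.4 and 17.1 in PC, and at 7.80, 8.19 and 8.70 in RC. CC replicate 3 was close to the TC and PC libraries, and the other CC libraries were close to RC. The log2 fold change was 0.56 in TC (SE 0.17, adjusted p 0.0104) and 0.57 in PC (SE 0.17, adjusted p 0.00937), and PC differed from TC by 0.01 (SE 0.17, adjusted p 0.979). Against CC the RC value was −0.48 (SE 0.17, adjusted p 0.0423), which was lost in 13 of 18 alternatives, most of them with 1 library left out, and which was −0.20 for MXD1 without CC replicate 3 (adjusted p 0.132). By contrast, the drop from PC to RC of −1.05 (SE 0.17, adjusted p 0.000132) was called in all 18. SNRNP27, on the same strand, shares 237 exon bases with MXD1.

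MXI1 (chromosome 10, 110207605 to 110287365, plus strand) was per length the most abundant repressor transcript in CC, at 18.8 ± 1.72 CPM per kb of exon (SD, n = 3). In CPM it was at 120, 100.1 and 114 in CC, at 102, 86.0 and 76.1 in TC, at 98.4, 84.1 and 73.7 in PC, and at 85.0, 90.1 and 97.4 in RC. All PC and RC libraries were below the lowest CC library, and 1 TC library was inside the CC range. The log2 fold change was −0.34 in TC (SE 0.12, adjusted p 0.0278), −0.38 in PC (SE 0.12, adjusted p 0.015) and −0.29 in RC (SE 0.12, adjusted p 0.0807). The TC call was lost without CC replicate 1, CC replicate 3, TC replicate 2 or TC replicate 3, with values for MXI1 of −0.32 to −0.24, and the PC call without CC replicate 1 (−0.33) or PC replicate 3 (−0.29). Without CC replicate 2 the RC value was called, at −0.36 (adjusted p 0.0471).

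MNT, a repressor that most cell types express whether or not they divide (chromosome 17, 2384073 to 2401104, minus strand), was at 42.8, 36.1 and 49.6 CPM in CC and at 41.9, 41.9 and 39.5 in TC. It was at 32.8, 33.5 and 32.1 CPM in PC and at 33.0, 33.9 and 34.4 in RC. TC lay inside the CC range (log2 fold change −0.06, SE 0.09, adjusted p 0.586), and PC and RC lay below it. The fall was −0.39 in PC (SE 0.09, adjusted p 0.00301) and −0.34 in RC (SE 0.09, adjusted p 0.0134), and MNT was the 1 member called lower in PC than in TC (−0.32, SE 0.09, adjusted p 0.026). That last call was lost without TC replicate 1 or 2 or any 1 of the PC libraries (−0.34 to −0.30 for MNT), the RC call in a fit of the 2 groups alone (−0.34). Without CC replicate 2, MNT was called lower in TC too, at −0.17 (adjusted p 0.0469).

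MAX, the obligate partner (chromosome 14, 65006174 to 65102695, minus strand), was at 40.9, 45.4 and 76.4 CPM in CC, at 65.4, 66.8 and 65.8 in TC, at 71.6, 71.8 and 68.1 in PC, and at 52.8, 48.6 and 52.6 in RC. CC replicate 3 was above every other library of the series, and the remaining CC libraries were below every other. No comparison with CC passed the test, with log2 fold changes of 0.28 in TC (SE 0.17, adjusted p 0.169), 0.38 in PC (SE 0.17, adjusted p 0.0709) and −0.08 in RC (SE 0.17, adjusted p 0.747). Without CC replicate 3, MAX was higher in TC (0.62, adjusted p 4.52e-06), PC (0.72, adjusted p 1.3e-06) and RC (0.25, adjusted p 0.007). The fall from PC to RC was −0.46 (SE 0.17, adjusted p 0.0326) and was lost without any 1 of the PC or RC libraries (−0.49 to −0.43 for MAX). In DESeq2 MAX was higher in PC at 0.40 (adjusted p 0.0322). FNTB, on the opposite strand, shares 822 exon bases with MAX and had 0 counts in all 12 libraries. CHURC1-FNTB, also on the opposite strand, shares 623.

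The same CC library had the highest level of MYC, MXD1, MNT, MLX and MLXIP among the CC libraries and the lowest of MXD3 and MXD4. With it left out, 5 members in place of 3 were higher in TC and 5 in PC, MAX and MLX being added in both.

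For comparison between genes, CPM were divided by the length of each gene's exons in kb. On this scale MYC was at 9.67 ± 1.58 CPM per kb in CC (SD, n = 3), 0.733 ± 0.145 in TC, 1.03 ± 0.0470 in PC and 6.85 ± 0.00784 in RC. The sum over MXD1, MXD3, MXD4, MXI1 and MNT averaged 31.4 CPM per kb in CC, 36.0 in TC, 40.0 in PC and 27.3 in RC. The sum moved by less than 1.5-fold against CC, and MYC by 13.1-fold in TC. What changed was its make-up: MXD4 contributed 9.10% to 10.5% of it in CC, 34.4% to 39.4% in TC, 41.8% to 44.9% in PC and 6.22% to 6.52% in RC. MXI1 contributed 57.6% to 62.2% in CC and 33.4% to 39.3% in PC. MXD3 was 1.08% to 1.33% of the sum in TC and 17.2% to 18.9% in RC. The share of MXD3 depends on the length used: with the length of the canonical transcript, chosen after seeing the data, it was 2.78% to 3.42% in TC and 35.4% to 38.1% in RC, while MXD4 was 35.2% to 40.6% in TC.

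The log2 ratio of MYC to this sum was −1.84, −1.80 and −1.49 in the CC libraries. The TC libraries had −5.76, −5.88 and −5.26 and the PC libraries −5.31, −5.26 and −5.25. The RC libraries, at −1.92, −1.99 and −2.06, were all below CC and far above TC and PC. As group means these were −1.71 ± 0.19 in CC, −5.63 ± 0.33 in TC, −5.27 ± 0.03 in PC and −1.99 ± 0.07 in RC (SD, n = 3). In TC there were 38.2 to 59.0 times as many repressor transcripts per length as MYC transcripts, and in CC 2.81 to 3.58 times as many. The ratio is a description of transcripts and carries no test. It takes each repressor as equal. With MNT left out, the separation between groups remained (CC −1.46, TC −5.43, PC −5.13 and RC −1.77). The other repressors were not left out in turn.

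**Figure D3:**
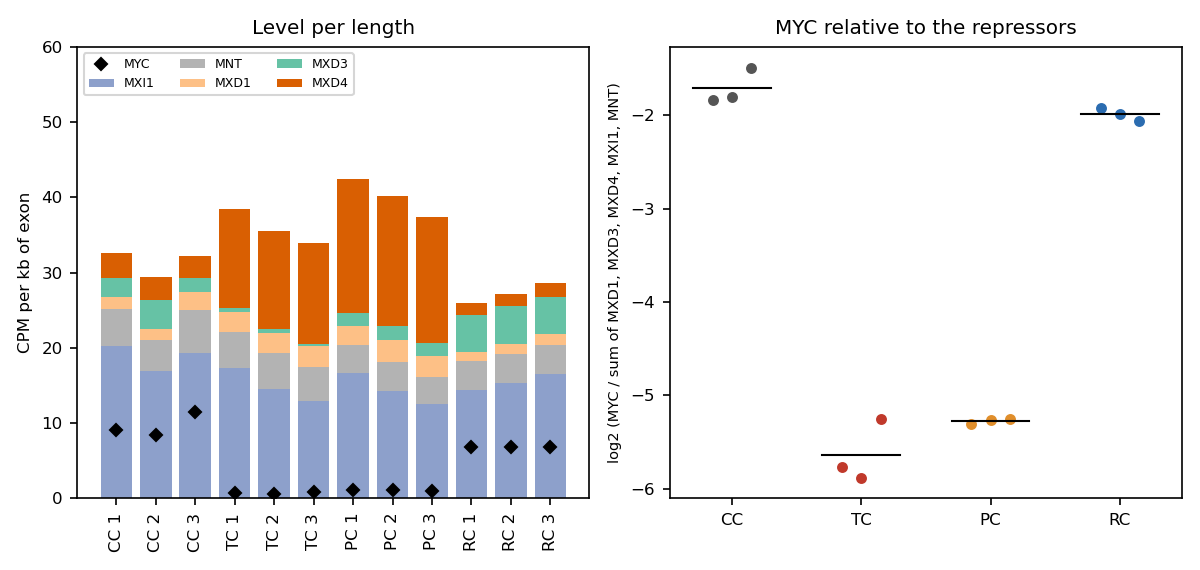
Left, level per length (CPM per kb of exon) of the 5 repressors as stacked bars and of MYC as diamonds, in each of the 12 libraries. Right, log2 of MYC over the sum of the repressors per library, with bars for the group means. The stacks average 27.3 to 40.0 CPM per kb over the groups while the MXD4 share is largest in TC and PC, and the ratio is near −1.7 in CC and near −5.6 in TC.

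MLXIP and its partner MLX form the glucose-responsive arm. MLXIP (chromosome 12, 122078756 to 122147344, plus strand) was at 30.9, 35.4 and 36.0 CPM in CC, at 68.7, 72.8 and 83.3 in TC, at 77.8, 78.6 and 79.0 in PC, and at 44.4, 40.0 and 40.7 in RC. TC and PC overlapped each other and lay above RC, which lay above CC. The log2 fold change against CC was 1.14 in TC (SE 0.08, adjusted p 1.38e-07), 1.20 in PC (SE 0.08, adjusted p 7.86e-08) and 0.29 in RC (SE 0.08, adjusted p 0.0162). The RC call on MLXIP was lost without CC replicate 1 (0.22) or RC replicate 1 (0.25). MLXIP was also the member whose 12 library values ran most opposite to those of MYC (Pearson r −0.96 for log2 CPM), with MXD4 next (−0.92). With 4 groups behind 12 libraries, these coefficients describe the same group differences again.

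MLX (chromosome 17, 42567072 to 42573239, plus strand) was at 94.6, 94.4 and 125 CPM in CC, at 102, 104 and 107 in TC, at 105, 105 and 109 in PC, and at 92.3, 86.2 and 93.7 in RC. Its log2 fold change was −0.01 in TC (SE 0.09, adjusted p 0.954), 0.02 in PC (SE 0.09, adjusted p 0.865) and −0.21 in RC (SE 0.09, adjusted p 0.105). Without CC replicate 3 the values of MLX were 0.15 in TC (adjusted p 0.0242) and 0.18 in PC (adjusted p 0.00887), and without CC replicate 2 it was called lower in RC (−0.27, adjusted p 0.0387). The fall of MLX from PC to RC, −0.23 (SE 0.09, adjusted p 0.0489), was lost in 11 of 18 alternatives, among them the omission of any 1 library of TC, PC or RC (−0.26 to −0.20). PSMC3IP, on the opposite strand, shares 775 exon bases with MLX. Its mean level was 10.7 CPM in CC, 6.39 in TC, 8.6 in PC and 11.4 in RC. How far its reads enter the MLX count was not tested.

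Both MLXIP targets were higher in TC than in CC, lower in PC than in TC and lower again in RC. TXNIP, which binds thioredoxin and drives the internalisation of glucose transporters (chromosome 1, 145992435 to 145996579, minus strand), was at 638, 693 and 379 CPM in CC and at 1782, 1566 and 1379 in TC. It was at 904, 868 and 731 CPM in PC and at 224, 278 and 321 in RC, so no 2 of the groups overlapped. The log2 fold change was 1.47 in TC (SE 0.20, adjusted p 3.98e-05), 0.55 in PC (SE 0.20, adjusted p 0.0272) and −1.06 in RC (SE 0.20, adjusted p 0.0017), and the PC call was lost without CC replicate 3 (0.34 for TXNIP), PC replicate 1 (0.49) or PC replicate 2 (0.52). ARRDC4, a related arrestin (chromosome 15, 97960703 to 97973833, plus strand), was at 25.2, 36.5 and 28.3 CPM in CC, at 131, 131 and 127 in TC, at 60.8, 65.6 and 67.1 in PC, and at 20.9, 22.5 and 26.2 in RC. Its log2 fold change was 2.11 in TC (SE 0.12, adjusted p 1.89e-08), 1.10 in PC (SE 0.12, adjusted p 4.59e-06) and −0.37 in RC (SE 0.12, adjusted p 0.0305). The RC call on ARRDC4 was lost without CC replicate 2 (−0.20), RC replicate 1 (−0.30) or RC replicate 2 (−0.35) and in a fit of the 2 groups alone. From TC to PC, TXNIP fell by 0.92 and ARRDC4 by 1.01 on the log2 scale (adjusted p 0.00575 and 9.67e-05). Over the same 2 days MLXIP differed by 0.07 (SE 0.08, adjusted p 0.604).

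**Figure D4:**
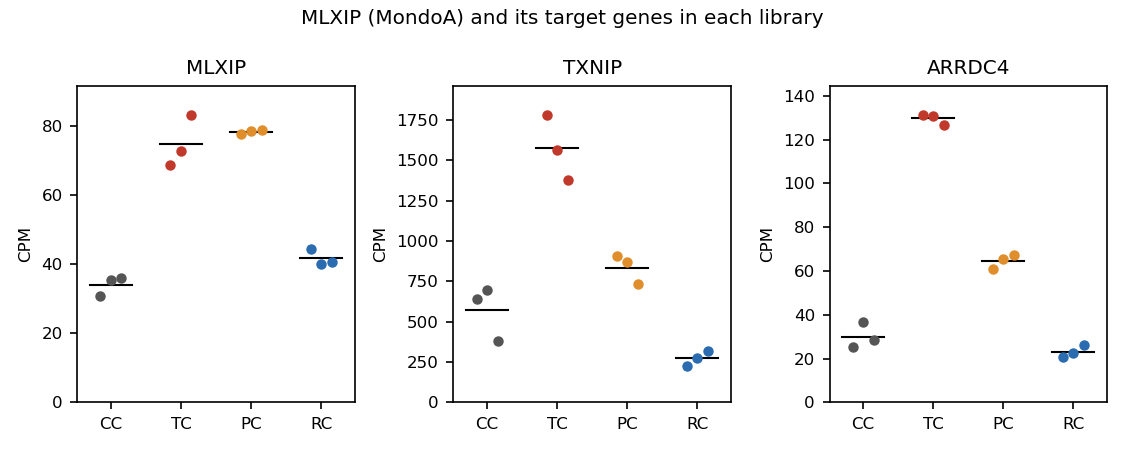
Level in CPM (vertical axes, from 0) of MLXIP, TXNIP and ARRDC4 in the 3 libraries of each group, with bars for the mean. The MLXIP libraries of PC and TC overlap, whereas the means of TXNIP and ARRDC4 are highest in TC, intermediate in PC and lowest in RC.

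Of the other genes of the extended network, MYCN, the neuronal MYC, had 0 counts in all 12 libraries, which allows at most 0.0794 CPM in the shallowest. MYCL was near 1 CPM in every group, from 0.803 to 1.63 CPM over all libraries, and passed the test in no comparison with CC. MLXIPL (ChREBP), the MLXIP relative of liver and fat, had 28, 14 and 22 counts in the CC libraries, then 4, 4 and 5 counts in TC, 1, 1 and 0 counts in PC and 0, 0 and 2 counts in RC, too few to be tested. MGA, a large MAX partner that represses germline genes, was at 42.9, 29.4 and 38.6 CPM in CC and at 31.7, 27.4 and 27.6 in TC. It was lower in TC (log2 fold change −0.35, SE 0.12, adjusted p 0.0197) and in PC (−0.33, SE 0.12, adjusted p 0.0254), with libraries that overlapped CC, and at 0.14 in RC (adjusted p 0.374). Both MGA calls were lost without CC replicate 1 (−0.23 in TC, −0.21 in PC) or CC replicate 3 (−0.31 and −0.29), without replicate 2 or 3 of the treated group (−0.32 to −0.30) and in a fit of the 2 groups alone.

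Most genes that MYC is known to activate were lower in TC and PC, as MYC was, and many were above control in RC, where MYC was not. Of 64 such genes listed, 63 were tested, and 50 were lower and 2 higher in TC (34.7% and 33.2% of all tested genes), with a median log2 fold change of −0.82 beside −0.02 over all tested genes. In PC 48 were lower and 3 higher (35.9% and 33.2% of all genes), with a median of −0.81 beside −0.04. In RC 21 were higher and 4 lower (18.2% and 19.1% of all genes), with a median of 0.11 beside 0.00, and without CC replicate 2 the number lower was 12. From PC to RC 54 rose and 3 fell (35.7% and 34.2% of all genes), with a median of 0.86 beside 0.01. The list is weighted towards ribosome biogenesis, and 6 of its genes act in the cell cycle or DNA replication. Of the list, LDHA and the untested NOC4L had most of their counts under a numbered copy entry, which was not used. With the cell cycle genes left out, a choice made after their values were seen, 44 of 57 were lower in TC and 43 in PC.

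Over the 3 comparisons with CC, 29 genes of the list were lower in TC and PC and not called in RC. Among these were NPM1 (nucleophosmin, of the nucleolus) at 1772 ± 128 CPM in CC, 679 ± 29.4 in TC, 766 ± 22.8 in PC and 1868 ± 79.7 in RC, and CAD, which catalyses the first steps of pyrimidine synthesis. A further 13 were lower in TC and PC and higher in RC. They included HSPD1, the mitochondrial chaperonin, with log2 fold changes of −1.62 in TC, −1.73 in PC and 0.50 in RC (adjusted p 4.68e-09, 2.91e-09 and 0.000459). These 3 genes were named after their values were seen. Of all tested genes 34.7% were lower in TC and 35.9% in PC, and both comparisons used the same CC libraries. The share of all tested genes with either joint pattern was not computed, so the counts only describe the list.

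Among genes of the list with a mean scaled count of at least 100, PLK1 and PLK4, kinases of mitosis and of centriole duplication, had the largest falls in TC. PLK1 was at 103, 117 and 90.1 CPM in CC, at 6.12, 5.62 and 4.51 in TC, at 28.4, 31.0 and 35.6 in PC, and at 177, 171 and 169 in RC. Its log2 fold change was −4.26 in TC (SE 0.14, adjusted p 1.95e-10), −1.71 in PC and 0.73 in RC. PLK4 had a log2 fold change of −2.88 in TC (SE of 0.11, adjusted p 6.64e-10). PLK1 thus rose by 2.56 from TC to PC (adjusted p 2.33e-07), at a time when MYC rose by 0.49. Both kinases follow the cell cycle, and they moved with the proliferation markers given above.

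SRM, spermidine synthase and a classical MYC target, went against the list. It was at 105, 109 and 130 CPM in CC, at 750, 800 and 809 in TC, at 1266, 1188 and 1346 in PC, and at 201, 185 and 173 in RC. The PC libraries were the highest, and every library of TC, PC and RC was above CC. The log2 fold change was 2.78 in TC (SE 0.09, adjusted p 2.5e-10), 3.47 in PC (SE 0.10, adjusted p 5.47e-11) and 0.70 in RC (SE 0.09, adjusted p 0.000117), and the TC and PC calls held in all 18 alternatives. ODC1, the enzyme a step earlier in polyamine synthesis, was at −0.14 in TC (adjusted p 0.144, but called without CC replicate 2, at −0.21) and 0.09 in PC (adjusted p 0.335). SLC19A1, the folate carrier, was the other gene of the list that was higher in TC (1.37, SE 0.42, adjusted p 0.012), from a level of 1.42 ± 0.550 CPM in CC.

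**Figure D5:**
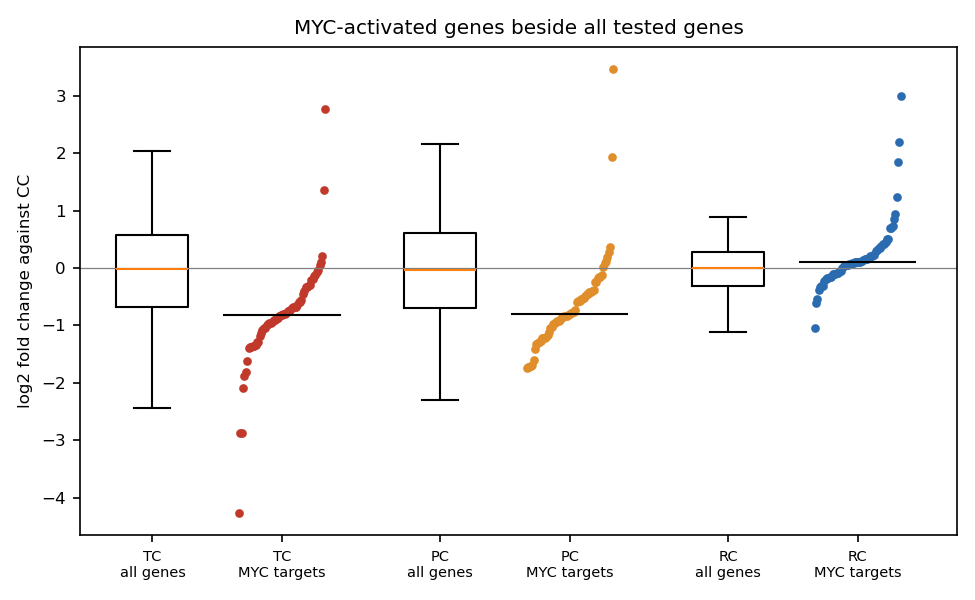
log2 fold change against CC (vertical axis) in TC, PC and RC. Boxes show the quartiles of all 15916 tested genes with the median as a line and whiskers from the 5th to the 95th percentile, and points are the 63 tested MYC-activated genes with a bar for their median. The points lie mostly below zero in TC (median −0.82) and PC (median −0.81) and around zero in RC (median 0.11), and the highest point in TC and in PC is SRM.

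Genes that MYC is known to repress were mixed. Of 8 tested, 4 were higher and 1 was lower in TC, beside 33.2% and 34.7% of all tested genes, and the median log2 fold change was 0.34 beside −0.02. THBS1 (thrombospondin-1, an inhibitor of angiogenesis) rose by 2.80 in TC (SE 0.12, adjusted p 1.42e-09) and 3.69 in PC (adjusted p 2.45e-10). GAS1, a gene of growth arrest, rose by 2.40 in TC and 3.25 in PC (adjusted p 3.36e-09 and 4.08e-10). GADD45A, a stress gene, was lower in TC, at −1.83 (SE 0.13, adjusted p 1.38e-07). CDKN1A, the CDK inhibitor p21, was at −0.09 in TC (adjusted p 0.265) and −0.11 in PC (adjusted p 0.188, but called without CC replicate 1, at −0.17) and was lower in RC (−0.93, adjusted p 9.6e-06). CDKN1A was named after its values were seen.

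Cofactors of MYC and corepressors of its opponents were called in TC in shares near those of all tested genes (33.2% higher and 34.7% lower). Of 10 cofactors of MYC, 4 were lower and 2 higher in TC. In PC 6 were lower and 1 higher (35.9% and 33.2% of all genes). In RC 0 were lower and 5 higher (19.1% and 18.2%). RUVBL2 and RUVBL1, the paired ATPases of chromatin remodelling complexes, were lower in TC at −1.46 and −1.25 (adjusted p 1.34e-09 and 5.63e-09). ZBTB17 (MIZ1), through which MYC represses, was higher at 0.44 (adjusted p 7.64e-06), and KAT5 (TIP60), an acetyltransferase, at 0.27 (adjusted p 0.00911). Of 10 corepressor genes used by MXD proteins, 3 were higher and 4 lower in TC, again near the shares of all genes. In PC 4 of these were higher and 4 lower, and in RC 4 were higher and 1 lower. HDAC1 went from 239 ± 2.85 CPM in CC to 597 ± 28.0 in TC (log2 fold change 1.32, SE 0.06, adjusted p 3.56e-09), while its close relative HDAC2 was lower at −0.59 (SE 0.07, adjusted p 1.84e-05). RBBP7, a histone-binding subunit of the same complexes, was lower at −1.04 (adjusted p 3.86e-07), and SUDS3, a subunit of the SIN3 complex, was higher at 0.27 (adjusted p 0.0124), a call lost without CC replicate 1 (0.22) and in a fit of the 2 groups alone (0.28). In RC the order of the deacetylases was turned, with HDAC1 at −0.36 and HDAC2 at 0.25 (adjusted p 0.00091 and 0.0206), the latter lost without CC replicate 1 (0.16), RC replicate 2 (0.23) or RC replicate 3 (0.24) and in a fit of the 2 groups alone.

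Of 12 genes for the stability of the MYC protein, 5 were higher and 7 lower in TC, where 33.2% and 34.7% of all tested genes were called in these directions. FBXW7, the ubiquitin ligase subunit that marks phosphorylated MYC for destruction, was at 9.52, 11.5 and 14.5 CPM in CC, at 29.2, 32.3 and 38.2 in TC, at 48.5, 52.4 and 54.3 in PC and at 14.0, 13.6 and 12.9 in RC. It rose by 1.49 in TC (SE 0.14, adjusted p 1.27e-06) and 2.13 in PC (SE 0.14, adjusted p 5.7e-08), and in RC it was inside the CC range (0.19, adjusted p 0.318, but called without CC replicate 3, at 0.36). STUB1, a ligase that works with chaperones, was higher by 0.72 in TC (adjusted p 3.31e-07). AURKA and CIP2A, which protect MYC from degradation, were lower in TC at −2.95 and −2.05 (adjusted p 3.95e-09 and 4.62e-08) and higher in RC at 0.77 and 0.91 (adjusted p 0.000757 and 0.000221). AURKA is also a gene of mitosis and moved with the proliferation markers. The amount and stability of the MYC protein were not measured.

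As a description of pattern, the genes most like MYC over the 12 libraries were FABP7, SFRP1 and OLA1 (Pearson r of log2 CPM 0.9954, 0.9950 and 0.9949 among 11906 genes). For MXD4, the member that rose most in TC, they were KLHL2, HDAC5 and LOC100507516 (0.9973, 0.9967 and 0.9965). All libraries of a group share its conditions, so these values describe the 4 group means and little more. The likeness in MXD4 was one of shape and not of size, since KLHL2 was higher in TC by 0.45 and HDAC5 by 1.04 on the log2 scale, against 2.08 for MXD4.

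The promoter windows of the MYC-activated genes held the E-box CACGTG in 29 of the 54 genes with a window (53.7%), against 12.4% of all tested genes with a window. The list was chosen for being targets of MYC, so this share describes the list. Among the corepressor genes 1 of 9 held it.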

How the data were processed

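The authors deposited a table of counts of reads on each gene in 12 libraries, which had not been normalised. Per the labels and the submitters' processing notes, cytoplasmic RNA depleted of ribosomal RNA was sequenced in pairs, trimmed with fastp 0.20.1, aligned with HISAT2 2.2.1 to GRCh38.p13 and counted with HTSeq 0.13.5 on the NCBI annotation. Strandedness and the treatment of reads with several matches were not stated, so neighbours that share exons and the 5088 entries named as numbered copies may share reads.

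Genes with a mean scaled count of at least 10 were tested (15916). A quasi-likelihood model of 4 group means was fitted to the 12 libraries in edgeR 4.0.16 (TMM factors 0.965 to 1.02, R 4.3.3, 8 residual degrees of freedom). Calls used the two-sided glmQLFTest with Benjamini-Hochberg adjustment over all tested genes at 0.05, and glmTreat for 1.5-fold. Log2 fold changes are edgeR estimates. Each SE was derived as the absolute log2 fold change over the square root of the F statistic of glmQLFTest. Every adjusted p in the text comes from this model unless DESeq2 1.42.0 is named. Exon lengths and overlaps came from GENCODE v44 by symbol, whereas the authors had counted on another annotation. The procedure was tested on simulated data. None of the 12 pairs of libraries within groups were duplicates.

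The members and the gene lists were chosen with earlier results of these data known. The MYC-activated genes were written from memory of a published list with 6 further genes, and the other lists from general knowledge, with 1 listed gene not reported here. Named were all members, the other network genes, the MLXIP targets and, of each further list, up to 2 genes with the largest rise and 2 with the largest fall in TC among those called with a mean scaled count of at least 100, besides genes stated to be named after their values were seen and neighbours that share exons. Alternatives were other scalings, a lower filter, a replicate block, fits of 2 groups, DESeq2 and leaving out each library.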

Additional observations from a re-analysis of the deposited data

Results flagged for a closer look

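For 3 members the change against CC was called in opposite directions in PC and in RC, and the difference between PC and RC was itself called in edgeR. MXD4 was higher than CC in PC and lower in RC, and RC differed from PC by −3.31 on the log2 scale (adjusted p 1.41e-11). MXD1 was likewise higher in PC and lower in RC, with a difference of −1.05 (adjusted p 0.000132). MXD3 was lower than CC in PC and higher in RC, with a difference of 1.46 (adjusted p 6.86e-05). In each of the 3 genes no library of PC overlapped RC, as in 78.5% of all tested genes. The opposite directions rest for MXD1 on a call against CC in RC, and for MXD3 on a call in PC, that leaving out 1 library removed. PC and RC share their CC libraries and differ also in days of culture, and drug history and time cannot be told apart.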

How the results depend on the processing

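The log2 fold changes of MYC, MXD4 and MLXIP against CC in TC and PC kept their direction and their call in all 18 alternatives, and so did the fall of MXD3 in TC, the rise of MXD1 in TC and PC and the fall of MNT in PC. Leaving out 1 library gave 3 to 5 members higher in TC, 3 to 5 higher and 2 to 4 lower in PC, 1 to 3 higher and 3 to 6 lower in RC, 0 to 1 lower in PC than in TC, and 3 to 5 lower in RC than in PC. Beyond 1.5-fold it gave 2 to 4 members higher in PC, 0 to 1 higher in RC and 0 to 1 lower in RC. Of the MYC-activated genes, 3 to 12 were then lower in RC than in CC and 1 to 7 lower in PC than in TC. Fits of 2 groups alone gave 2 members lower in RC, 0 of them beyond 1.5-fold, as did DESeq2 (0), and 5 MYC-activated genes lower in RC than in PC.

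Values near 0 changed sign. In TC, MLX was at 0.0032 with DESeq2 size factors and in DESeq2, at 0.0102 with the lower filter and at 0.0009 with the replicate block, and MYCL was at 0.0029 with the lower filter. Without 1 library, values in TC ran from −0.0754 to 0.1459 for MLX, −0.1701 to 0.0653 for MNT, −0.2268 to 0.2975 for MYCL and −0.1518 to 0.0007 for CDKN1A. Those in PC ran from −0.0494 to 0.1774 for MLX, −0.3274 to 0.6279 for SLC19A1 and −0.1238 to 0.4428 for MYCL. Those in RC ran from −0.2473 to 0.2533 for MAX and −0.2276 to 0.0378 for GADD45A. From TC to PC they ran from −0.0501 to 0.0648 for MXD1 and −0.1583 to 0.0821 for MXI1, and from PC to RC from −0.0057 to 0.204 for MXI1.

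The log2 ratio of MYC to its repressors was −1.46 in CC, −5.13 in PC and −1.77 in RC without MNT, −5.38 in PC from raw counts, and −1.94 in CC, −5.43 in PC and −2.41 in RC with the length of the canonical transcript, an alternative chosen after seeing the data. These alternatives change the terms or the lengths that enter the ratio and not the counts.

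Whether replicate numbers pair the samples was not settled. Of 18 same-numbered pairs, 2 deviated together above 0.1 (range −0.0353 to 0.143). In 8 of 12 libraries the most alike was another of their own number. Same-numbered pairs of TC and PC were at 0.143, 0.0657 and 0.112, and those with different numbers at −0.11 to 0.00327. With the replicate block, TC had 3 members higher and 3 lower, PC had 3 and 4, and RC had 2 and 4, as without it. With 3 libraries a group, the MAX libraries of TC, PC and RC lay within the range of CC. The MLX libraries of TC and PC did so too, whereas those of RC lay below that range.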

Other observations

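An entry listed as a numbered copy of MLXIP, which is not a member, had 1129 counts in RC replicate 2 (20.1 CPM) and 0.678 to 5.92 CPM in the other 11 libraries. The MLXIP entry itself was at 40.0 CPM in that library, between the other RC libraries and CC, and no difference of the copy entry passed the test in edgeR (log2 fold change 1.60 in RC against CC, adjusted p 0.188).

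Of the 63 MYC-activated genes tested, SORD, sorbitol dehydrogenase, was lower than CC in TC (log2 fold change −0.29, adjusted p 0.00211), higher in PC (0.20, adjusted p 0.0193) and lower in RC (−0.19, adjusted p 0.0412). EXOSC5, of the RNA exosome, and WDR74, of ribosome maturation, were lower in all 3 groups, at −0.54 and −0.31 in RC (adjusted p 0.000325 and 0.00373). FBL, LDHA and MPHOSPH10 passed the test in none of the 3 comparisons with CC. FBL and LDHA were low in this table, at 2.33 to 2.54 and 0.248 to 0.518 CPM in CC. Over the 12 libraries LDHA had 265 counts and its numbered copy 3233, and NOC4L had 3 and 1769, so the values of these entries may not describe the whole gene. These genes were named after their values were seen.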
